A study of Mus musculus with 12 samples.

Results

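Smooth muscle contractile genes were examined in mouse embryonic fibroblasts. The set was a list of 10 genes: Acta2, Actg2, Tagln, Cnn1, Cnn2, Mylk, Myl9, Tpm1, Tpm2 and Synpo2. All 23 probe sets that the annotation of the Affymetrix Mouse430_2 array gives to these symbols were taken, out of 45037 probe sets that are not the manufacturer's controls. Of the 23, 19 had a mean signal of at least 100 over the 12 arrays and entered the tests, together with 18903 probe sets in all, and each of the 10 genes kept at least 1 of them. Each gene was described by the brightest of its probe sets, judged by the mean over all arrays.

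Smooth muscle cells shorten when calcium-bound calmodulin activates myosin light chain kinase, which phosphorylates the regulatory light chain and lets myosin pull on actin filaments. Tropomyosins, calponins and transgelin lie along these filaments and tune their stability and their contact with myosin. Fibroblasts that take on a myofibroblast state build the same apparatus into stress fibres, and many of its genes are controlled by serum response factor, which binds CArG boxes together with the cofactors myocardin or the myocardin-related transcription factors.

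RNA came from 6 lines of primary fibroblasts of e14.5 embryos, 1 array per culture. The 3 control lines carried 1 floxed allele: line flox1 was CBP+/flox, and lines flox2_1 and flox2_2 were p300 +/flox. The 3 triCH1 lines lacked the CH1 domain, a protein-binding module of CBP (gene Crebbp) and p300 (gene Ep300), in 3 alleles of this pair of genes, and their last allele was floxed. Line triCH1flox1 was CBP CH1/flox with p300 CH1/CH1, and lines triCH1flox2_1 and triCH1flox2_2 were CBP CH1/CH1 with p300 CH1/flox. All 6 lines, controls included, had received a Cre adenovirus at passage 3 and had then been expanded at least 100 fold. Whether Cre had deleted the floxed allele in each line was not checked here. Each line was kept for 6 h at 21% O2 (normoxia) or 0.1% O2 (hypoxia), which gave 4 groups of 3 arrays. A line is the culture of 1 genotype and number, so p-values of the group comparisons measure the spread between these lines and cultures. In RNA from whole cultures, fewer cells of a type and less RNA per cell cannot be told apart.

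Motifs were looked for in the 250 bases before the start of 8 of the 10 genes, in RefSeq sequence of build GRCm38.p6, on both strands. The CArG box, the site bound by serum response factor, was present before Myl9 (bases −161 to −152 from the start) and before Cnn2 (−56 to −47), against 1.47% of 32851 windows of the same length. A form of it with 1 C or G among its inner bases was present at −84 to −75 and −34 to −25 before Acta2 and at −99 to −90 before Myl9, against 7.24% of windows. The letters CATTCC, an element known from muscle promoters, occurred before Acta2, Mylk and Tpm1 (12.6% of windows). The core letters of a hypoxia response element are ACGTG, found before Mylk (16.6% of windows), or GCGTG, found before Synpo2, Cnn1, Tpm1 and Cnn2 (28.2% of windows). One GCGTG before Cnn2, on the opposite strand at −60 to −56, shared its last base with the CArG box there. Actg2 and Tagln were not matched to a window. The windows of 4 genes are printed 5′ to 3′, because they hold the sites of serum response factor and, for Synpo2, the hypoxia core of the gene with the widest response to oxygen. Capitals mark the CArG boxes and their 1-base variants in Acta2, Myl9 and Cnn2, the CATTCC element (as its reverse complement) in Acta2, and GCGTG in Synpo2. They lie at chr19:34255374-34255623 (minus strand), chr2:156775214-156775463 (plus strand), chr10:79988350-79988599 (plus strand) and chr3:123236150-123236399 (minus strand), in that order. A match describes the letters and not binding.
Acta2: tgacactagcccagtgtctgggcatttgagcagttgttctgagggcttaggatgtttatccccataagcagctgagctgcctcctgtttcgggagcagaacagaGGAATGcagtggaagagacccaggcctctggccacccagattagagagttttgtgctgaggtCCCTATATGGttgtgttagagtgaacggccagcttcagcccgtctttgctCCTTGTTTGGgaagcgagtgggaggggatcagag
Myl9: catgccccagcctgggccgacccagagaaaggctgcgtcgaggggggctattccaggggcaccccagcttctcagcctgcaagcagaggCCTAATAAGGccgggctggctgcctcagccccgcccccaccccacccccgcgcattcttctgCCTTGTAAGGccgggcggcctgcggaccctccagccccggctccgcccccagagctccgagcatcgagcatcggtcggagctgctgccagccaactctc
Cnn2: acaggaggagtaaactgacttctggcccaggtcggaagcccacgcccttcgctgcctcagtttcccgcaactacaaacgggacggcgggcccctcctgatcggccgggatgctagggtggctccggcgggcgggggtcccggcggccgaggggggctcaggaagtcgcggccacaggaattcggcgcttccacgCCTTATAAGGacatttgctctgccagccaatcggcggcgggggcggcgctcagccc
Synpo2: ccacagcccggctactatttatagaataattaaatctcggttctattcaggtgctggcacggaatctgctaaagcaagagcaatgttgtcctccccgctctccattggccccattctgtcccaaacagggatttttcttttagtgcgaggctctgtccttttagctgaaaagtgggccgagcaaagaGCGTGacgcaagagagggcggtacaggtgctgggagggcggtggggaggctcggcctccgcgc

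The arrays were scaled by the authors with factors between 2.57 and 4.28, and their median signals lay between 57.2 and 76.1. Bnip3, a hypoxia-induced mitophagy receptor, served as a check of the oxygen labels. It averaged 723 ± 168 (SD, n = 3) in control normoxia and 16053 ± 1438 in control hypoxia, and rose by 4.46 ± 0.18 (log2, SE; limma adjusted p = 2.12e-08). Its mean in triCH1 lines was 622 in normoxia and 13257 in hypoxia. The main probe set of Crebbp ranged from 699 to 1852 over the 12 arrays and that of Ep300 from 207 to 836, and neither checks the genotypes, since no source used here places them relative to the deleted or floxed parts. Averaged over the 12 arrays, all 8 fibroblast markers reached 100. Dcn did so through the triCH1 lines (342 in normoxia and 414 in hypoxia), and averaged 94 and 65.5 in control lines. Pdgfra averaged 160 in control normoxia and 59.8 in control hypoxia. The summed signal of the 8 markers ranged from 100909 to 135453 in control arrays and from 102212 to 130950 in triCH1 arrays. Vim, Col1a2, Col1a1 and Col3a1 had the highest means among them (44244, 28728, 21734 and 19019). None of 4 endothelial markers, 1 of 4 macrophage markers (Csf1r) and 2 of 4 epithelial markers reached 100.

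Acta2 encodes smooth muscle alpha-actin, the usual marker of myofibroblasts. Its signal was 35474.7, 49971.1 and 46103.6 in flox2_1, flox1 and flox2_2 in normoxia, and 42485, 52728 and 44839.4 in hypoxia. In triCH1flox2_1, triCH1flox1 and triCH1flox2_2 it was 41266.5, 42091.5 and 39399.4 in normoxia, and 47711.7, 44831.8 and 50514 in hypoxia. Control and triCH1 arrays overlapped at both oxygen levels, and the log2 difference, triCH1 minus control, was −0.085 ± 0.12 in normoxia and 0.035 ± 0.12 in hypoxia. This probe set, 1416454_s_at, has the suffix that the manufacturer gives to probes shared by several transcripts, so related actins may contribute. It also lay near the top of the scale, where the highest signal of an array was only 1.1 to 1.25 times its own. Whether signals so near the top were compressed was not tested.

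The 2 other Acta2 probe sets were lower in triCH1 lines on average. Probe set 1444105_at read 1005, 1105.2 and 999.8 in control normoxia and 481.5, 1009.7 and 505.9 in triCH1 normoxia, in the same order of lines. Line triCH1flox1 lay among the controls, and the other triCH1 lines lay below all of them. In hypoxia the control arrays read 1273.1, 1192.9 and 1021.5 and the triCH1 arrays 772.7, 968 and 652.6, without overlap. The log2 differences of −0.7 ± 0.25 and −0.54 ± 0.25 did not pass the test (limma adjusted p = 0.503 and 0.623). Probe set 1456658_at, whose mean of 104 was just over the limit for testing, differed by −0.45 and −0.37. Whether the Acta2 probe sets differed from each other was not tested.

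Actg2 encodes smooth muscle gamma-actin, the actin of visceral smooth muscle. Its signal in normoxia was 8398, 11223.3 and 11237.4 in the control lines flox2_1, flox1 and flox2_2, and 2575.2, 6994.5 and 4175.1 in triCH1flox2_1, triCH1flox1 and triCH1flox2_2. In hypoxia the same lines read 10660.6, 12311.5 and 10912.8 against 3047.1, 7398.2 and 4895.1. Each triCH1 array lay below each control array, and triCH1flox1 was the triCH1 line nearest to the controls. Group means were 10286 ± 1635 and 4582 ± 2238 in normoxia and 11295 ± 889 and 5113 ± 2184 in hypoxia (SD, n = 3), so control lines averaged 2.25 and 2.21 times the triCH1 lines. The log2 differences of −1.27 ± 0.33 and −1.23 ± 0.33 did not pass the adjustment over all probe sets (limma adjusted p = 0.29 and 0.301). Without line triCH1flox1 they were −1.63 and −1.54 and passed (adjusted p = 0.00715 and 0.00985). That omission also raised limma's calls over all 18903 probe sets, from 1 to 245 in normoxia and from 14 to 276 in hypoxia. Without the normoxia array of triCH1flox1 alone, the normoxia difference also passed (adjusted p = 0.0409). Over all omissions of an array or line, the differences ranged from −1.63 to −0.91 in normoxia and from −1.54 to −0.9 in hypoxia. Neither passed in any other setting run, among them a fit of the floxed Ep300 lines alone.

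**Figure D1:**
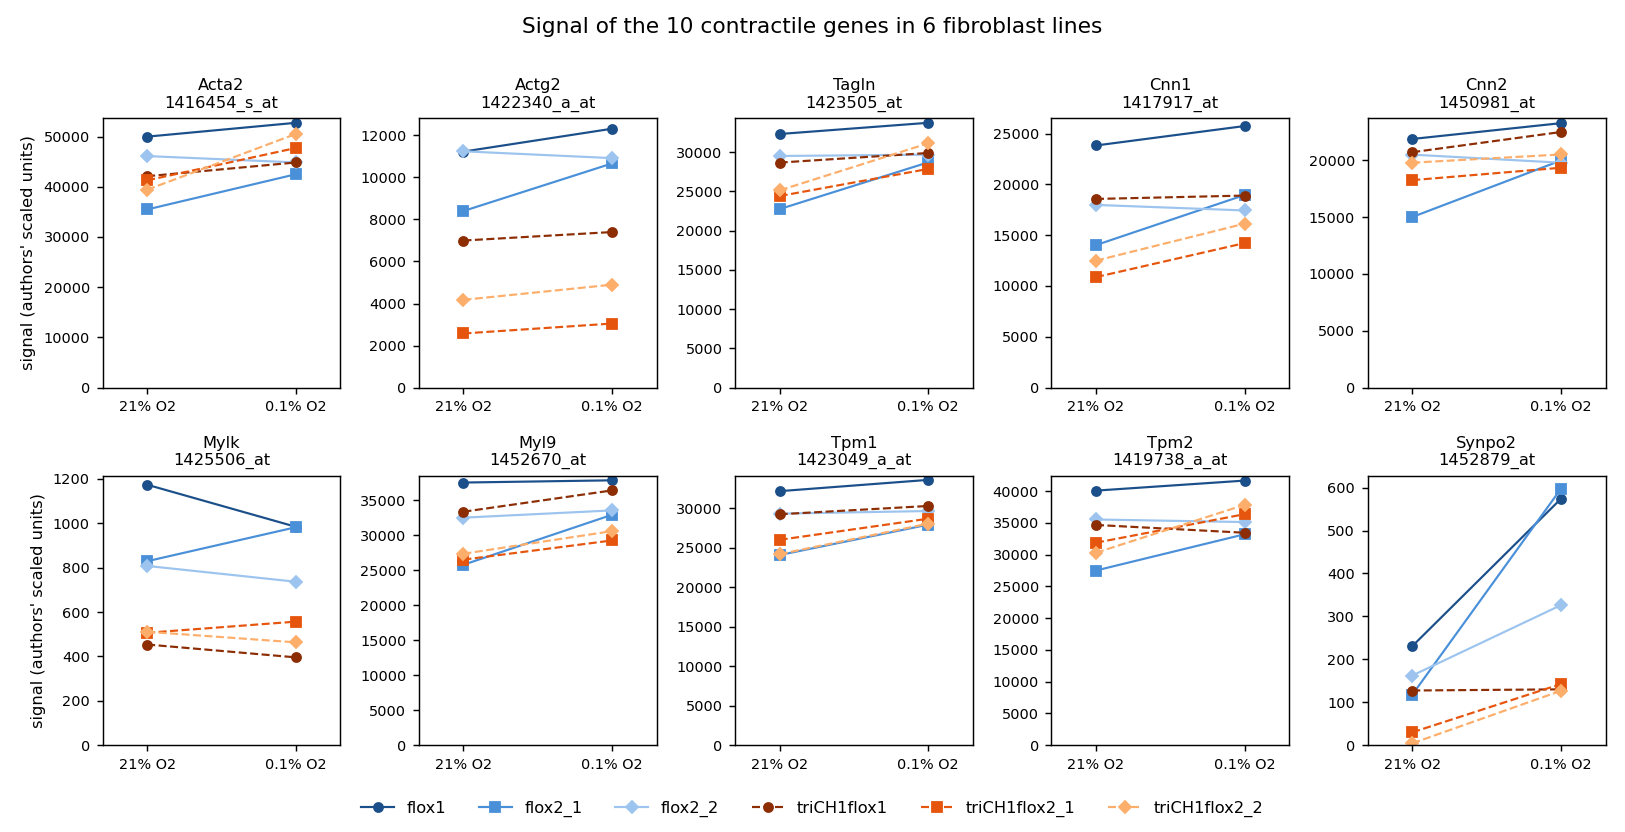
Signal (authors' scaled units, linear, from 0) of the main probe set of each gene at 21% and 0.1% O2, 1 panel per gene, 1 line per fibroblast line, with control lines solid blue and triCH1 lines dashed orange to brown. Actg2 and Mylk separate the control from the triCH1 lines at both oxygen levels, Synpo2 is higher at 0.1% O2 in each of the 6 lines, and line flox1 has the highest mean of its 2 arrays in all 10 panels.

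Mylk encodes myosin light chain kinase, the enzyme that starts contraction. In normoxia its signal was 829.4, 1174 and 808.1 in flox2_1, flox1 and flox2_2, and 506.8, 454 and 511.4 in triCH1flox2_1, triCH1flox1 and triCH1flox2_2. In hypoxia it was 982.5, 984.5 and 736.9 against 557.1, 396.1 and 463.7. The control and triCH1 arrays did not overlap, and here triCH1flox1 was the lowest line, not the one nearest to the controls. Control lines averaged 1.91 times the triCH1 lines at both oxygen levels. The log2 differences were −0.89 ± 0.2 and −0.9 ± 0.2 (limma adjusted p = 0.203 and 0.178, not called). A further Mylk probe set, 1425505_at, gave −1.02 ± 0.27 and −1.04 ± 0.27 (adjusted p = 0.303 and 0.282). Its 6 triCH1 arrays, from 110.2 to 177, all lay under its 6 control arrays, from 213.1 to 421.7. The remaining one, 1425504_at, was under 100 on each of the 12 arrays and was not tested.

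Myl9 encodes the regulatory light chain that this kinase phosphorylates. Its signal ranged from 25761.6 in flox2_1 to 37494.8 in flox1 in control normoxia, and from 26492.2 in triCH1flox2_1 to 33330.7 in triCH1flox1 in triCH1 normoxia. In hypoxia the ranges were 32896.8 to 37812.2 and 29231.4 to 36372.5, and the groups overlapped at both oxygen levels. The log2 difference between line types was −0.13 ± 0.14 in normoxia and −0.12 ± 0.14 in hypoxia (limma adjusted p = 0.962 and 0.85). Whether the kinase and its substrate differed from each other was not tested.

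Cnn1 encodes calponin 1, an actin-binding inhibitor of the myosin ATPase and a marker of differentiated smooth muscle. Its signal in normoxia was 14023.1, 23822.5 and 17975.2 in flox2_1, flox1 and flox2_2, and 10872.5, 18563.1 and 12492.5 in triCH1flox2_1, triCH1flox1 and triCH1flox2_2. In hypoxia it was 18951.8, 25735.7 and 17430.6 against 14219.5, 18894.3 and 16130.6. The groups overlapped because triCH1flox1 reached the level of control lines, and the differences of −0.42 ± 0.22 and −0.32 ± 0.22 were not called (limma adjusted p = 0.739 and 0.738). Cnn2, the calponin of many non-muscle cells, differed by 0.051 ± 0.14 and −0.015 ± 0.14, with signals from 15008.8 to 23265.6 over the 12 arrays. Tagln encodes transgelin (SM22), an early marker of the smooth muscle lineage. Its signals ranged from 22753.5 to 33746.9, and its differences were −0.1 ± 0.13 and −0.049 ± 0.13.

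Tpm1 and Tpm2 encode tropomyosins, the coiled coils that run along the actin filament. For Tpm1 the signal ranged from 24070.7 in flox2_1 to 33580.6 in flox1, and triCH1 lines differed from controls by −0.1 ± 0.12 in normoxia and −0.064 ± 0.12 in hypoxia. For Tpm2 it ranged from 27501.5 to 41653.6, in the same lines, and the differences were −0.075 ± 0.13 and −0.026 ± 0.13. In Tagln, Cnn2, Tpm1 and Tpm2, as in Acta2, the control array with the lowest value was flox2_1 in normoxia, and the highest was flox1 in hypoxia. The further tested probe sets of Tpm1 differed by −0.13 and −0.093 (1423721_at) and by 0.064 and 0.3 (1456623_at), and those of Tpm2 by −0.015 and −0.099 (1425028_a_at), 0.076 and 0.02 (1449577_x_at) and 0.13 and 0.2 (1419739_at), and none was called by limma. They did not share one order of lines. Probe set 1456623_at of Tpm1 was highest in triCH1flox2_1 (mean 1605) and lowest in flox2_2 (877), and probe set 1449577_x_at of Tpm2, which has probes similar to other sequences, was highest in flox1 (5073) and lowest in flox2_2 (2887). A further Tpm1 probe set, 1447713_at, read at most 52 and was not tested.

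Synpo2 encodes synaptopodin 2 (myopodin), an actin-bundling protein of smooth and striated muscle that takes part in stress fibre assembly. In normoxia its signal was 117.6, 230.7 and 162.4 in flox2_1, flox1 and flox2_2, and 30.1, 127.5 and 4.6 in triCH1flox2_1, triCH1flox1 and triCH1flox2_2. In hypoxia it was 597.1, 573.8 and 326.2 against 142.5, 130.2 and 126.8. The line types overlapped in normoxia, where triCH1flox1 exceeded flox2_1, and did not overlap in hypoxia. Mean signals were 170 ± 57 and 54.1 ± 64.9 in normoxia and 499 ± 150 and 133 ± 8.26 in hypoxia (SD, n = 3), and the log2 differences of −1.7 ± 0.5 and −1.72 ± 0.5 were not called (limma adjusted p = 0.377 and 0.364). Without line triCH1flox1 the normoxia difference was −2.39 and passed (adjusted p = 0.0125), and without its normoxia array alone the adjusted p was 0.0403. These omissions also raised limma's calls over all 18903 probe sets in normoxia, from 1 to 245 and to 63. Over all omissions of an array or line the normoxia difference ranged from −2.39 to −1.1, and it passed in no other setting run. Several of the triCH1 signals were far below 100, no detection calls were used, and the error of single signals this low was not measured here.

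A further Synpo2 probe set, 1450828_at, read 84.1, 134.8 and 124.7 in control normoxia and 398.7, 294 and 164.6 in control hypoxia. In triCH1 lines it read 7.1, 14.2 and 64.3 in normoxia and 45.4, 64.8 and 64.7 in hypoxia, each below each control array. Its differences between line types, −1.63 ± 0.43 and −1.9 ± 0.43, were not called either (limma adjusted p = 0.306 and 0.185). The other Synpo2 probe sets, 1441206_at and 1435399_at, had means under 100 and were not tested. Of these, 1441206_at, with a mean of 90.3, was just under the limit, and it too had its highest value, 260, in flox2_1 hypoxia.

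**Figure D2:**
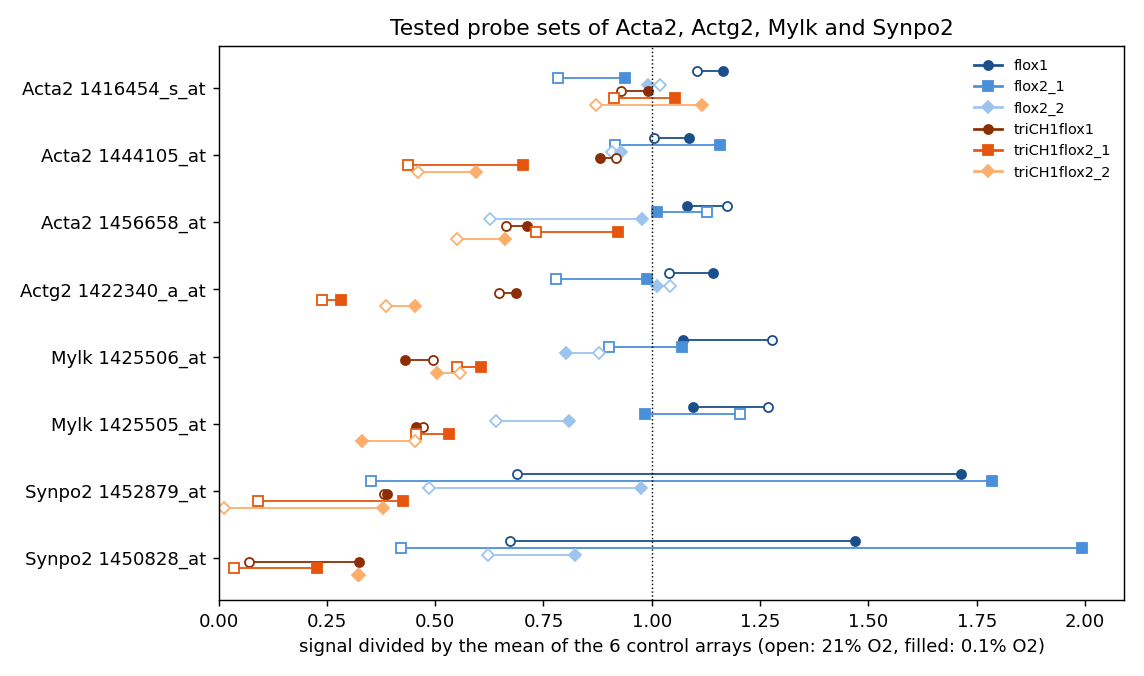
Signal of each tested probe set of Acta2, Actg2, Mylk and Synpo2, divided by the mean of its 6 control arrays (linear axis, no unit), for each line, open at 21% and filled at 0.1% O2, with the 2 arrays of a line joined. The triCH1 lines lie left of all control arrays for Actg2, both Mylk probe sets and 1450828_at of Synpo2, and are interleaved with controls for 1416454_s_at of Acta2.

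Over all members, no difference between triCH1 and control lines passed the test. Limma called 0 of the 19 member probe sets in normoxia, where it called 0.00529% of all probe sets tested, and 0 of 19 in hypoxia, where it called 0.0741%. At an unadjusted p under 0.05 there were 6 of 19 in normoxia and 6 of 19 in hypoxia, against 7.56% and 7.97% of all probe sets. At both oxygen levels they were the probe set of Actg2, both tested probe sets of Mylk and of Synpo2, and 1444105_at of Acta2. All triCH1 arrays lay below all control arrays in 4 of 19 probe sets in normoxia, against 4.64% of all, and in 8 of 19 in hypoxia, against 6.05%. Counted by main probe set, these were 2 genes (Actg2 and Mylk) and 3 of 10 (with Synpo2). Among the probe sets in these counts, 1450828_at of Synpo2 averaged 28.5 and 58.3 in triCH1 normoxia and hypoxia, under the limit for testing. For 1456658_at of Acta2, which did not overlap in hypoxia, the triCH1 means were 79.4 and 93.4. Both were thus tested only through their control arrays. Probe set 1452879_at of Synpo2 averaged 54.1 in triCH1 normoxia and 133 in triCH1 hypoxia. The part of this selection in the counts was not tested. Without line triCH1flox1, limma called 3 of 19 in normoxia and 1 of 19 in hypoxia, and without the normoxia array of that line it called 3 of 19 in normoxia. The counts over all 18903 probe sets moved too, from 1 to 245 in normoxia and from 14 to 276 in hypoxia without the line, and to 63 in normoxia without that array. The median log2 difference of the 10 genes was −0.11 in normoxia and −0.092 in hypoxia, with 9 of 10 genes negative in each, and over all tested probe sets it was 0.016 and 0.035. After quantile normalization the medians were −0.09 and −0.046, with 1 and 2 genes positive. After centring on the array median both were −0.13, and in hypoxia no gene was positive.

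**Figure D3:**
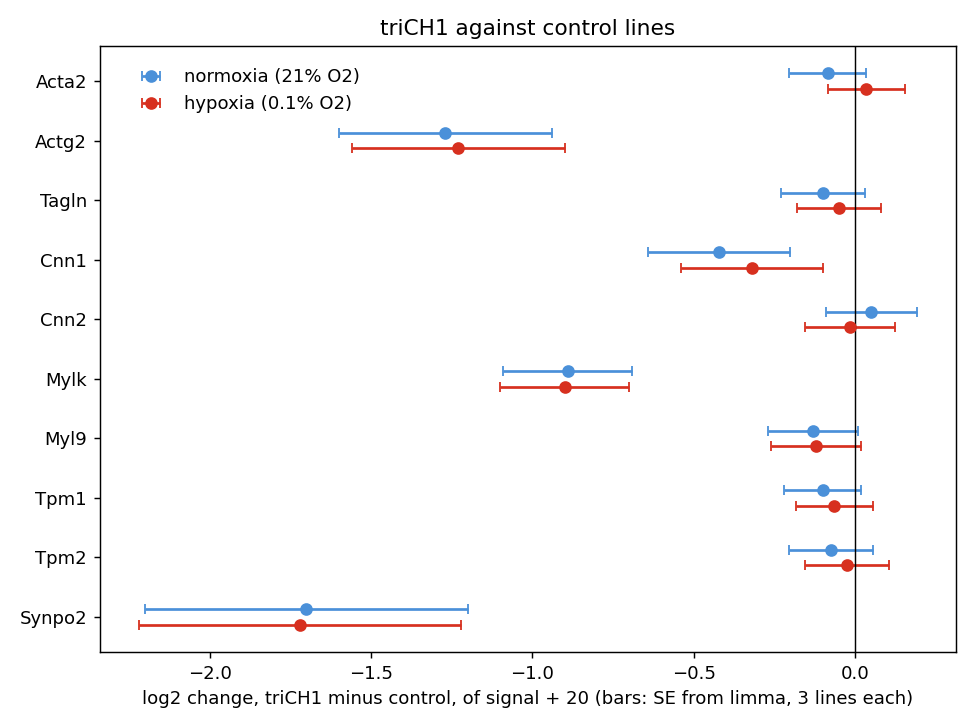
Log2 difference of signal + 20, triCH1 minus control, for the main probe set of each gene at 21% O2 (blue) and 0.1% O2 (red), with limma's SE as bars and 3 lines per line type. Actg2, Mylk and Synpo2 lie between −0.89 and −1.72, Cnn1 at −0.42 and −0.32, and the other genes between −0.13 and 0.051.

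Markers of other cell types were set beside these differences. Of 8 markers of pericytes and vascular smooth muscle, 5 reached a mean of 100. They were Pdgfrb (2441), Cspg4 (1691), Mcam (433), Myh11 (234) and Notch3 (138). Rgs5 (90.4, but 142 in control normoxia), Abcc9 (24.9) and Kcnj8 (13.8) were under it. The summed signal of all 8 was 4445 to 6954 in control arrays and 2834 to 5056 in triCH1 arrays. Of 10 skeletal and cardiac muscle markers, 3 reached 100 (Actc1, Acta1 and Tnnc1), and the defining factors Myod1, Myog and Myf5 did not. The summed signal of these markers was 12275 to 18446 in control and 8226 to 13724 in triCH1 arrays, and most of it was Acta1, a skeletal actin closely related to the actins above (15069 in control and 11043 in triCH1 normoxia). Of the 8 fibroblast markers, 4 had a higher fitted mean in triCH1 lines at each oxygen level and 4 a lower one, and limma called 0 of them (at an unadjusted p under 0.05, 2 in normoxia and 4 in hypoxia). In normoxia Thy1 averaged 6050 in control and 2972 in triCH1 lines. In the other direction, Lum averaged 276 and 1588, Dcn 94 and 342, and Pdgfra 160 and 417. The part of the cell makeup in the differences of Actg2, Mylk and Synpo2 was not tested.

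The response to hypoxia was small and positive in most members, and among the 10 genes it was largest in Synpo2. Limma called 0 of the 19 member probe sets in control lines and 0 of 19 in triCH1 lines, where it called 0.831% and 0.635% of all probe sets. At an unadjusted p under 0.05 there were 2 and 1 of 19, against 5.98% and 6.25% of all. Both were Synpo2 probe sets in control lines, and the 1 in triCH1 lines was 1452879_at of Synpo2. All hypoxia arrays lay above all normoxia arrays in 2 of 19 probe sets in control lines (Synpo2; 4.66% of all) and in 1 of 19 in triCH1 lines (Acta2; 5.64% of all). The median log2 response of the 10 genes was 0.14 in control and 0.17 in triCH1 lines, with 9 of 10 positive in each, and Mylk was the exception (−0.047 and −0.064). Over all tested probe sets the medians were −0.038 and −0.021, and 43.1% and 46.8% were positive.

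Synpo2 had log2 responses of 1.44 ± 0.5 in control lines and 1.43 ± 0.5 in triCH1 lines (limma adjusted p = 0.465 and 0.543). By line they were 1.24 in flox1, 2.17 in flox2_1, 0.92 in flox2_2, 0.026 in triCH1flox1, 1.7 in triCH1flox2_1 and 2.58 in triCH1flox2_2. All 6 lines were positive, and triCH1flox1 was close to 0 for this probe set. For 1450828_at the same line had 1.31, and triCH1flox2_2 had 0.0068, so both probe sets had positive responses in all 6 lines but of unequal size in single triCH1 lines. The fitted responses of 1450828_at were 1.13 ± 0.43 in control and 0.86 ± 0.43 in triCH1 lines (limma adjusted p = 0.622 and 0.832). For 1452879_at the mean response over both line types was 1.44 ± 0.35 and missed the threshold (limma adjusted p = 0.0598). For 1450828_at it was 0.99 ± 0.31 (adjusted p = 0.162). In this comparison limma called 0 of 19 member probe sets and 1.75% of all. At an unadjusted p under 0.05 there were 2 of 19, both of Synpo2, against 11.3% of all. With line as a replicate block the mean response of 1452879_at was 1.44 and passed (limma adjusted p = 0.0109). Limma then called 693 of all probe sets in place of 331. Without the normoxia array of triCH1flox1 the response in triCH1 lines was 2.12 and passed (adjusted p = 0.0178). Over all omissions of an array or line it ranged from 0.83 to 2.14, and it passed in no other setting run. For the difference in response between the line types, limma called 0 of 19 probe sets and 0% of all, with 0 of 19 at an unadjusted p under 0.05 against 0.693% of all. The difference for Synpo2 was −0.011 ± 0.7 (log2, SE), an error too wide to set its responses in the line types apart or together.

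The responses of the other genes were set beside the scale of the arrays. Counted over 10 genes, hypoxia exceeded normoxia in 9 in flox1, 10 in flox2_1, 4 in flox2_2, 8 in triCH1flox1, 10 in triCH1flox2_1 and 9 in triCH1flox2_2, with median log2 responses of 0.07, 0.34, −0.028, 0.056, 0.19 and 0.27. The 99th percentile of the array signals was also higher in hypoxia, at 15332 against 13102 in normoxia in flox2_1 and 15238 against 13964 in triCH1flox2_2. In normoxia and hypoxia it was 15452 and 15939 in flox1, 15364 and 15939 in flox2_2, 15362 and 15568 in triCH1flox1, and 13874 and 14250 in triCH1flox2_1. After quantile normalization, which gives all arrays one distribution, the counts were 4, 7, 2, 6, 10 and 7, in the same order of lines. The median response of the 10 genes was then 0.015 in control and 0.051 in triCH1 lines, with 6 and 8 genes positive, and Acta2, Tpm1 and Tpm2 were negative in control lines (−0.025, −0.03 and −0.023). In flox2_2 the 99th percentile was higher in hypoxia and the median response was −0.028. In triCH1flox2_1 all 10 genes were positive before and after quantile normalization. The part of the scale in these responses was not tested. Synpo2 remained positive in all 6 lines, from 0.01 in triCH1flox1 to 2.52 in triCH1flox2_2.

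**Figure D4:**
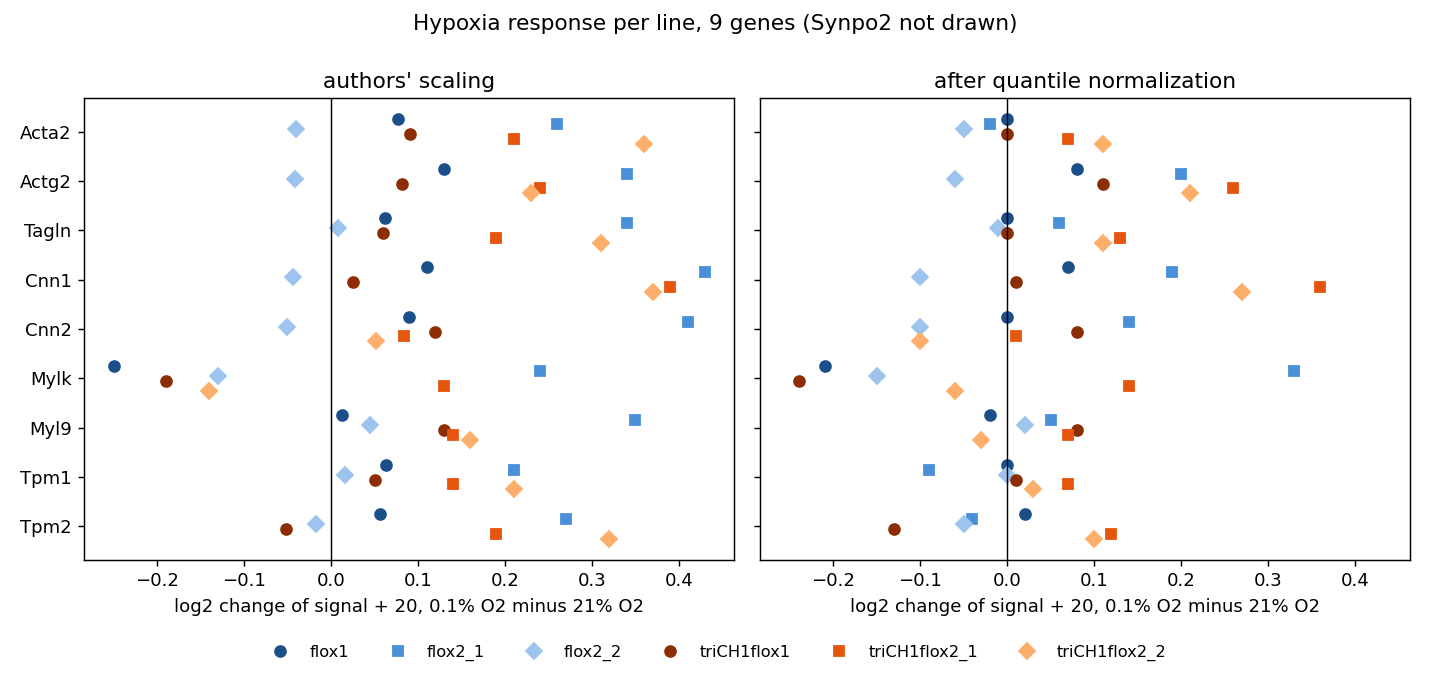
Log2 response to hypoxia (0.1% minus 21% O2, of signal + 20) in each of the 6 lines for 9 genes, with the authors' scaling on the left and after quantile normalization on the right. The points lie mostly right of 0 on the left and closer to 0 on the right, and Mylk is on both sides of 0 in both panels.

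By their main probe sets, 5 of the 10 genes differed among the 6 lines. An F test over lines, with oxygen as an additive term, called 10 of 19 member probe sets, against 15.8% of all probe sets tested. At an unadjusted p under 0.05 there were 15 of 19, against 31.3% of all. The genes called were Actg2 (limma F test, adjusted p = 6.51e-07), Mylk (0.00115), Cnn1 (0.00157), Synpo2 (0.00704) and Myl9 (0.0272). Myl9 lost its call in 13 of 28 alternative settings and Cnn1 in 3, among them the omission of flox1 (adjusted p = 0.178 and 0.0604). Without flox1 the test called 6 member probe sets in place of 10, and 1845 in place of 2991 over all probe sets. Tpm1, Tpm2, Tagln, Acta2 and Cnn2 were not called (adjusted p = 0.0858, 0.117, 0.127, 0.129 and 0.168). The second probe sets of Mylk and Synpo2, 1444105_at of Acta2, 1456623_at of Tpm1 and 1449577_x_at of Tpm2 were called too. The p-values of this F test measure the spread left between the normoxia and hypoxia arrays of a line after a shared oxygen effect. No line had replicate arrays at the same oxygen level. The lines include both line types, so the test does not separate the CH1 deletions from other differences between lines.

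Line flox1 had the highest mean of all 10 genes. For Actg2 the means were 11767 in flox1, 11075 in flox2_2 and 9529 in flox2_1, where flox1 and flox2_2 overlapped and flox2_1 lay below both, then 7196 in triCH1flox1, 4535 in triCH1flox2_2 and 2811 in triCH1flox2_1, whose arrays did not. For Mylk they were 1079, 906 and 772 in flox1, flox2_1 and flox2_2, and 532, 488 and 425 in triCH1flox2_1, triCH1flox2_2 and triCH1flox1. For Synpo2 they were 402, 357 and 244 in flox1, flox2_1 and flox2_2, and 129, 86.3 and 65.7 in triCH1flox1, triCH1flox2_1 and triCH1flox2_2. In these 3 genes the control lines took the upper ranks, but in Cnn1 the order was flox1 (24779), triCH1flox1 (18729), flox2_2 (17703), flox2_1 (16487), triCH1flox2_2 (14312) and triCH1flox2_1 (12546). Lines flox1 and triCH1flox1, both with a floxed Crebbp allele, thus held the upper ranks for Cnn1, and also for Cnn2, Myl9 and Tpm1.

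The spread between the highest and the lowest line was 6.12-fold for Synpo2, 4.19-fold for Actg2, 2.54-fold for Mylk and 1.98-fold for Cnn1. For the other 6 genes it was 1.26- to 1.35-fold, and flox2_1 was the lowest line in 5 of these. The signals of these 6 genes lay above the 99th percentile of each array, and the mean 99th percentile of a line was 15695 in flox1 and 14217 in flox2_1. After quantile normalization the ratios were 6.9, 3.93, 2.48 and 1.74, and 1.04 to 1.17 for the other 6. Line flox1 was then the highest in 9 of 10 genes, with triCH1flox1 the highest for Myl9. Of the variance over the 12 arrays, line accounted for 98.1% in Actg2 and 96.3% in Mylk, and oxygen for 1.2% and 0.325%. In Synpo2 line accounted for 56.7% and oxygen for 32.4%. The medians over the 10 genes were 69.8% for line and 15.4% for oxygen, and over all tested probe sets 58% and 6.38%. Acta2 (56.6% and 25.9%) and Synpo2 lay under the median of all probe sets for line and above it for oxygen. Line has 5 degrees of freedom and oxygen 1, so shares are read against those of all probe sets.

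Other genes of the apparatus were counted from lists of its pathways, and limma called 0 of the 51 tested in each comparison between groups. At an unadjusted p under 0.05 there were 3 for hypoxia in control lines, 4 for hypoxia in triCH1 lines, 8 for their mean, 0 for their difference, 7 for triCH1 against control in normoxia and 4 in hypoxia. The shares over all probe sets were 5.98%, 6.25%, 11.3%, 0.693%, 7.56% and 7.97%, in the same order. In the F test over lines, limma called 7 of 15 tested genes of a list of other contractile and actin-binding proteins (Des, Lmod1, Csrp1, Cnn3, Tagln2, Pdlim7 and Synm). Lmod1, leiomodin 1, a smooth muscle actin nucleator, averaged 663 ± 112 in control and 342 ± 120 in triCH1 normoxia, a log2 difference of −0.96 ± 0.24 (limma adjusted p = 0.281), and its adjusted p in the F test was 0.00899. Myh11, the heavy chain of smooth muscle myosin, averaged 273 and 143 in normoxia and 343 and 177 in hypoxia in control and triCH1 lines, and was not called. Over the 15 tested genes of that list of contractile and actin-binding proteins, the median log2 difference was −0.068 in normoxia and −0.11 in hypoxia. Of the 15, 5 were positive in normoxia and 2 in hypoxia. Over all tested probe sets the medians were 0.016 and 0.035. Of non-muscle actins and myosin subunits, 2 of 7 differed among lines (Myh10 and Myl12b). Of serum response factor and its partners, 3 of 9 did (Fhl2, Csrp2 and Klf4, a factor known to repress contractile genes). Srf itself (adjusted p = 0.0799), Myocd (0.564) and Mrtfa (0.51) were not called. Over these 9 genes the median log2 difference, triCH1 minus control, was −0.24 in normoxia and −0.2 in hypoxia. In each, 2 of the 9 were positive, and 0 had an unadjusted p under 0.05 in limma.

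In the TGF-beta pathway, an inducer of the myofibroblast state, 5 of 12 genes differed among lines (Tgfb1, Tgfb2, Tgfb3, Tgfbr2 and Ltbp1). The ligand gene Tgfb2 averaged 1140 ± 391 in control and 505 ± 55 in triCH1 normoxia, a log2 difference of −1.08 ± 0.33 that was not called (limma adjusted p = 0.394). In the other direction, Tgfbr2 averaged 3896 in control and 5309 in triCH1 normoxia, and was not called in that comparison. Over the 12 genes the median difference in normoxia was −0.052, with 4 positive. In hypoxia it was 0.05, with 7 positive. For all these lists, the counts of genes that differed among lines stand beside the 15.8% of all probe sets called in that F test.

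The 10 genes were compared with their own mean over the 12 arrays. Log2 values were centred per gene but not scaled, so genes with a wide spread, such as Synpo2 and Actg2, weighed more in it. Each gene's Pearson r with the mean of the other 9 ran from 0.51 in Cnn2 to 0.92 in Cnn1. Among non-members, the genes most like the mean of the 10 were Bag2 (r = 0.97), Gng11 (0.97), Rassf1 (0.96), Tnfaip3 (0.96), Tmsb10 (0.96), Rsu1 (0.95), Pxdc1 (0.94) and Kdelr3 (0.94). Those with the lowest r were Ppig (−0.95), Naf1 (−0.95) and Ncapd3 (−0.94). The 12 arrays share 6 lines and their scale, so these values describe the arrays and carry no test. Bag2, for example, averaged 5780 in flox1 and 2890 and 2950 in triCH1flox2_1 and triCH1flox2_2.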

How the data were processed

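RNA of 12 cultures was hybridised to 1-colour Affymetrix Mouse430_2 arrays. The deposited table holds linear intensity values, 1 per probe set and array, which the authors scaled to a target of 500, per the labels. Software version and detection calls are not given in the sources used here. Of 45101 probe sets, 64 controls were left out. Genes were named from GEO's platform annotation, where 34945 probe sets had 1 symbol, 932 had several (0 of them named a member) and 9160 had none listed. Every per-sample column was mapped through its sample's title.

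Values of log2(signal + 20) were fitted in limma 3.58.1 under R 4.3.3 (lmFit, then eBayes allowing the variance to follow the mean signal), after probe sets averaging under 100 were dropped. The model had 1 mean per group (8 residual degrees of freedom). A separate F test over the 6 lines had oxygen as an additive term (5 residual degrees of freedom). Tests were two-sided, with Benjamini-Hochberg adjustment over 18903 probe sets within a comparison and a threshold of 0.05. Errors of log2 changes are SE, and those of signals SD. The fit was tested on simulated data.

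The main fit did not pair the normoxia and hypoxia arrays of a line. They were paired in the per-line responses, the F test over lines and the replicate block. The pairing rests on the shared name, since the labels do not say outright that both cultures came from the same cells. Once each group mean was subtracted, the arrays that share a line name correlated at 0.47 in flox1, 0.28 in flox2_1 and −0.02 in flox2_2. The values were 0.54 in triCH1flox1, 0.58 in triCH1flox2_1 and 0.35 in triCH1flox2_2. Pairwise r of the arrays lay between 0.936 and 0.962, with 0 identical pairs. Replicate numbers followed accession order and only name samples.

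All 10 genes are named, each by its brightest probe set on average. The 8 most and 3 least like genes are those with the highest and lowest r to the members' mean. From the pathway lists with reported counts, but not from the marker lists, all genes called in any test are named. Those of them given with values, and Myh11, Srf, Myocd and Mrtfa, were chosen after values were seen. The members and lists were chosen with earlier results of these data known. The count of 1 list, whose genes are among the 51 tested, is not reported here.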

Additional observations from a re-analysis of the deposited data

How the results depend on the processing

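The 12 arrays and 6 lines limit the precision, and signals under 100 are uncertain. Limma's counts of 0 called members for hypoxia in control lines, and for the difference between the responses, held in all alternatives run: pseudocounts of 1 and 100, no filter or one at 200, quantile normalization, median centring, no variance trend, a robust fit, 1 value per gene, the floxed Ep300 lines alone, the replicate block and each array or line left out. For the mean hypoxia response the count was 1 with a pseudocount of 100, with 1 value per gene, with the floxed Ep300 lines alone and with the replicate block by line (Synpo2, 1.44, adjusted p = 0.0109), and 0 to 1 when an array or line was left out, with 1 without triCH1flox1, its normoxia array or the normoxia array of triCH1flox2_2. Pairing by the replicate block changed no other member's call. Leaving out arrays or lines gave 0 to 1 for hypoxia in triCH1 lines, 0 to 3 for triCH1 against control in normoxia, 0 to 1 in hypoxia and 6 to 14 for the lines, and the highest counts of the group comparisons came without triCH1flox1 or its normoxia array. Over all probe sets the counts ranged, in the same order, over 66 to 121, 0 to 245, 0 to 276 and 1444 to 4156. The count for the lines was 6 of 19 probe sets with no variance trend and with the floxed Ep300 lines alone (1932 and 1532 of all probe sets), and with 1 value per gene it was 6 of 10 genes, against 5 of 10 by main probe set. In 116 settings of single genes the sign turned, none of them called. After quantile normalization, hypoxia in control lines was −0.025 for Acta2, −0.03 for Tpm1 and −0.023 for Tpm2, hypoxia in triCH1 lines −0.004 for Cnn2, and triCH1 against control in hypoxia 0.045 for Cnn2. After median centring, the latter was −0.00089 for Acta2, and the difference in response was −0.011 for Myl9. With a pseudocount of 1 the difference in response was 0.7 for Synpo2. With 1 value per gene, triCH1 against control in hypoxia was −0.29 for Acta2, 0.049 for Tpm1 and 0.024 for Tpm2, in normoxia 0.03 for Tpm2, and the difference in response −0.006 for Tpm2. With the floxed Ep300 lines alone, triCH1 against control in hypoxia was 0.0025 for Cnn2, 0.013 for Tagln and 0.12 for Tpm2, the difference in response −0.047 for Myl9 and 0.59 for Synpo2, and for Mylk hypoxia in control lines was 0.055 and the mean response 0.026. The other sign changes came from leaving out an array or line, where the log2 value ranged as follows. For the hypoxia response in control lines, it was −0.046 to 0.2 for Acta2, −0.012 to 0.24 for Tagln, −0.02 to 0.36 for Cnn1, −0.015 to 0.26 for Cnn2, −0.19 to 0.12 for Mylk, −0.0093 to 0.26 for Myl9, −0.019 to 0.19 for Tpm1 and −0.048 to 0.22 for Tpm2. For the hypoxia response in triCH1 lines, it was −0.17 to 0.55 for Actg2 and −0.19 to 0.051 for Mylk. For the mean hypoxia response, it was −0.013 to 0.35 for Actg2 and −0.13 to 0.03 for Mylk. For the difference in response, it was −0.32 to 0.4 for Actg2, −0.055 to 0.2 for Tagln, −0.1 to 0.32 for Cnn1, −0.17 to 0.1 for Cnn2, −0.19 to 0.13 for Mylk, −0.12 to 0.15 for Myl9, −0.054 to 0.15 for Tpm1, −0.07 to 0.2 for Tpm2 and −0.61 to 0.69 for Synpo2. For the difference between line types in normoxia, it was −0.23 to 0.016 for Acta2, −0.25 to 0.0053 for Tagln, −0.11 to 0.16 for Cnn2 and −0.23 to 0.044 for Tpm2. For the difference between line types in hypoxia, it was −0.03 to 0.13 for Acta2, −0.096 to 0.02 for Tagln, −0.073 to 0.061 for Cnn2, −0.12 to 0.011 for Tpm1 and −0.094 to 0.069 for Tpm2. The causes were not tested.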
